A study of Mus musculus with 6 samples.

Results

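Genes of macrophages and of antigen presentation on major histocompatibility complex (MHC) class II were followed in whole mouse testis after heat exposure. The set was a list of 31 gene symbols, matched to the gene name column of the 6 arrays, and 1 probe was taken per gene, the brightest over the arrays. In all, 31 of 31 genes were found, out of 35019 genes on the array, and 31 were among the 25275 genes bright enough to be tested. Of the 31 genes, 14 mark macrophage identity and uptake, 3 encode complement C1q, 5 serve the lysosome and killing, 4 encode leukocyte signalling and membrane proteins, and 5 belong to MHC class II. The files list Emr1 under its old name, and its current symbol is Adgre1.

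The arrays compared 3 testes of B6 mice, which are C57BL/6 of wild-type genotype, with 3 of B6.MRLc1-(D1Mit202–D1Mit403) mice, called B6.MRLc1 here. The latter strain is a congenic on the C57BL/6 background and has a telomeric stretch of chromosome 1, from 67.97 to 81.63 cM, of MRL type. All mice were males aged 3 months kept free of specific pathogens, and all testes had received 1 scrotal exposure to 43°C for 20 min and were taken 10 days later. Unheated testes were not analysed, so whether a difference between the strains is a response to heat cannot be told. The study's title names heat-induced calcification within the testis, and the design text names the strain comparison and 3 mice per strain.

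Macrophages are the most common leukocytes of the healthy testis, where they lie among the Leydig cells of the interstitium and around the seminiferous tubules. They depend on the receptor for colony stimulating factor 1, take up dead cells and debris by scavenger, lectin and phosphatidylserine receptors, and break them down in lysosomes. MHC class II molecules carry peptides from that breakdown to the cell surface for CD4 T cells. Macrophages around the tubules are known for more class II than those among the Leydig cells. In whole tissue, fewer cells of a type and less RNA per cell cannot be told apart.

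Values are log2 signals relative to the array's 75th percentile of signal, so 1 unit is a doubling, and levels are not compared between genes because probes differ in brightness. Between 68.6% and 69.0% of spots were well above background on the B6 arrays and between 58.0% and 64.7% on the B6.MRLc1 arrays, and no spot was saturated. All 6 arrays lay on 1 slide. The B6 arrays filled its first row and the B6.MRLc1 arrays its second, so strain and slide row cannot be told apart. The number of arrays, 3 per strain, limits the precision of every difference given below. The macrophage markers Csf1r, Emr1, Cd68 and Aif1 were well above background on all 6 arrays, as were 30 of the 31 genes. Cd163 was well above background on 3 B6 and 2 B6.MRLc1 arrays.

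No gene of the set passed the strain comparison. Of the 31 genes, 0 were called by limma at an adjusted p under 0.05, where 2.62% of all tested genes were called, and the lowest adjusted p was 0.188, for Mertk. An unadjusted p under 0.05 was found for 2 of the 31, Mertk and Trem2, against 20.3% of all tested genes. The means of 25 genes were lower in B6.MRLc1 and those of 6 were higher, whereas 46% of all tested genes were lower. The median difference, B6.MRLc1 minus B6, was -0.19 on the log2 scale for the set and 0.02 for all tested genes. The differences ran from -0.83 for Clec7a to 0.39 for Marco, so none reached 1 log2 unit in size, which 3.58% of all tested genes did.

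The median moved with single arrays. It was -0.05 without B6 array 1, with 20 of 31 genes lower in B6.MRLc1, against 47.5% of all tested genes in the same fit. It was -0.40 without B6 array 3, with 28 of 31 lower, against 44.9%. Without B6 array 3, 20 of the 31 genes had an unadjusted limma p under 0.05, against 23.5% of all tested genes. In that fit 1 gene, Cd14, passed, where 1.91% of all tested genes did. B6 array 3 was the lowest B6 array for most of the set, so leaving it out widens the difference in these same genes. The counts of that fit are therefore not an independent test of the strains.

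**Figure D1:**
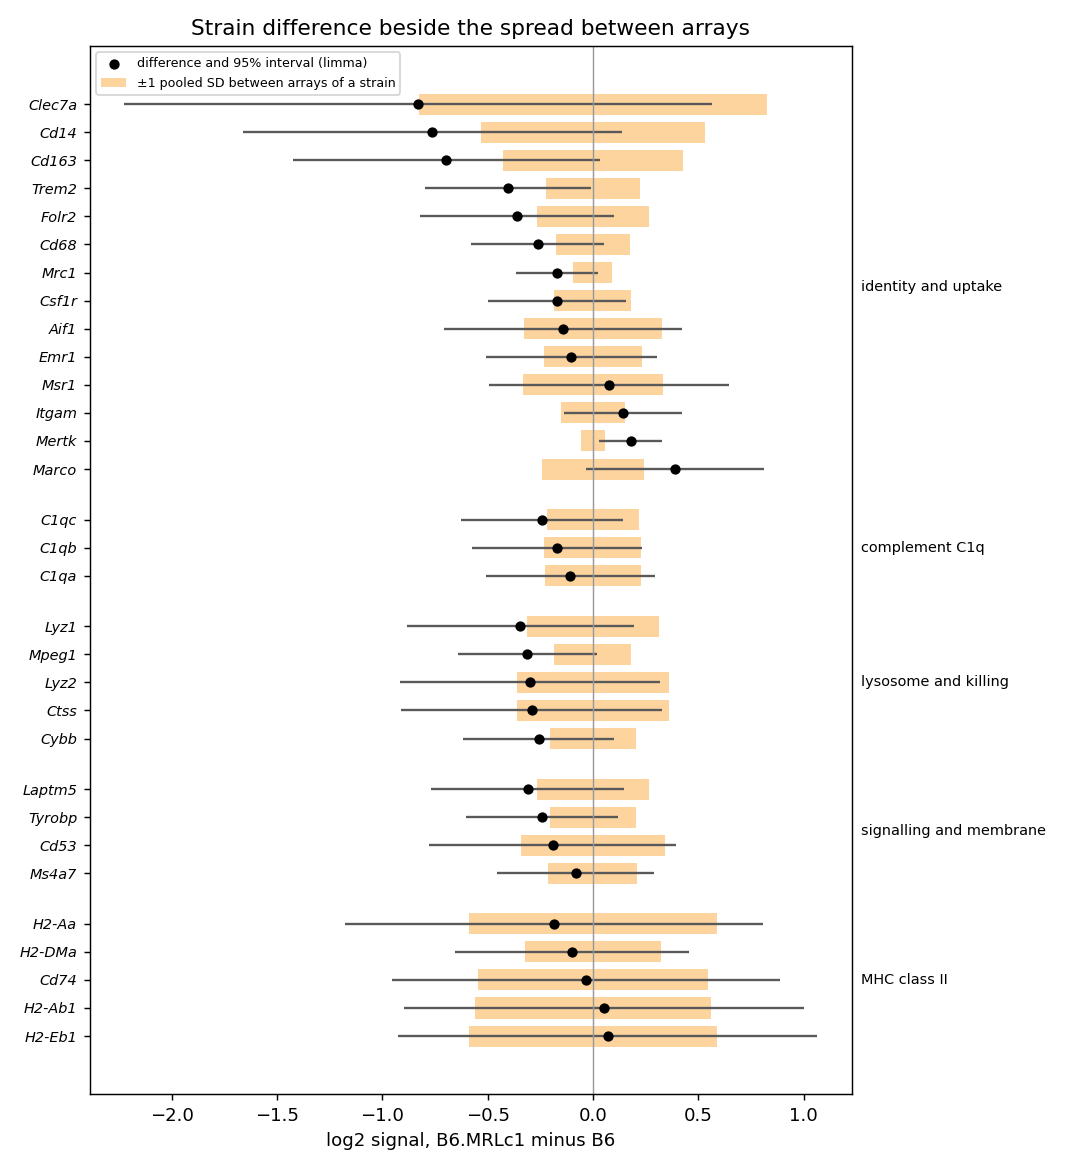
Each point is the difference between the strain means of a gene, B6.MRLc1 minus B6, in log2 signal with its 95% interval from limma over 3 arrays per strain; the bar behind it spans 1 pooled SD between arrays of a strain on each side of 0. The difference was smaller than the pooled SD for 16 of the 31 genes.

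The spread between the B6 arrays was the larger quantity for most of these genes. The strain difference was smaller than the range of the 3 B6 arrays for 29 of 31 genes, against 69.2% of all tested genes. The exceptions were Mertk and Marco. The median SD between B6 arrays was 0.36 on the log2 scale over the set and 0.11 over all tested genes. Between B6.MRLc1 arrays the corresponding medians were 0.13 and 0.10. The B6 SD exceeded the B6.MRLc1 SD for 29 of 31 genes, against 54.1% of all tested genes, and the exceptions were Itgam and Marco. A B6 range of at least 1 log2 unit, which is a 2-fold range, was measured for 6 of 31 genes and for 3.48% of all tested genes.

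**Figure D2:**
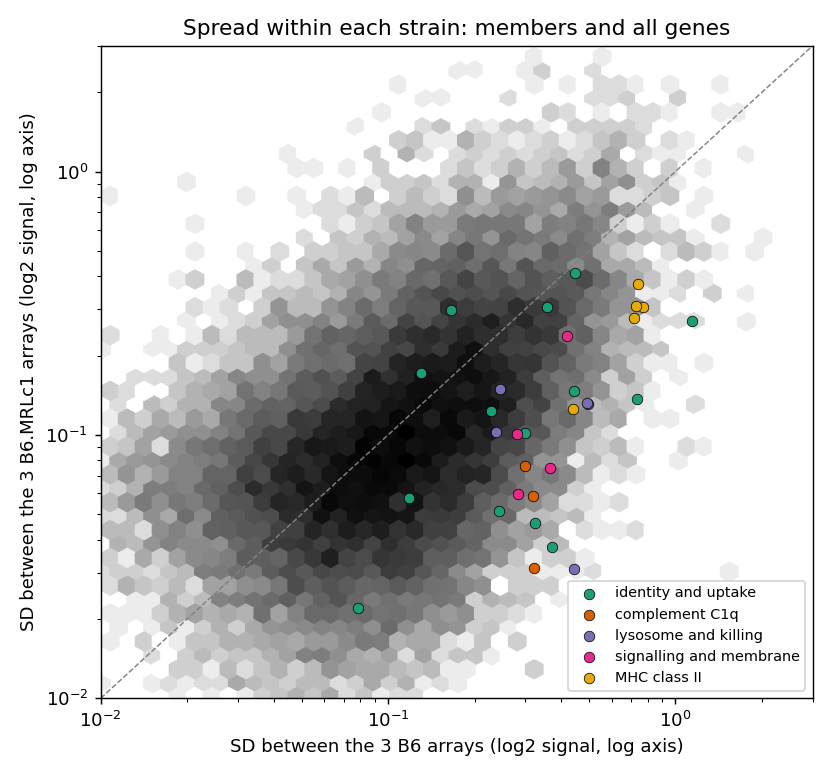
The SD between the 3 B6 arrays is plotted against the SD between the 3 B6.MRLc1 arrays, both in log2 signal on log axes; grey shading is the density of all tested genes, darker where there are more, points are the 31 genes coloured by role, and the dashed line marks equal SDs. Of the points, 29 lie on the B6 side of the line.

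The B6 arrays stood in a common order over most of the set. B6 array 1 was the highest B6 array for 23 of 31 genes, against 32.7% of all tested genes, and B6 array 3 was the lowest for 26 of 31, against 31.3%. Over the 26 genes outside MHC class II, array 1 was the highest for 23 and array 3 the lowest for 21. B6 arrays 1 and 2 each lay above all 3 B6.MRLc1 arrays for 27 genes, against 30.5% and 28.7% of all tested genes, and B6 array 3 did so for 3, against 30.3%. For 17 genes B6 array 3 was the lowest of the 6 arrays, which was the case for 13.8% of all tested genes.

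For each array a score of the set was formed by centring each gene on its mean over the 6 arrays and taking the median of the 31 centred signals. The B6 arrays scored 0.37, 0.16 and -0.26 in the order 1, 2, 3. The B6.MRLc1 arrays scored -0.15, -0.06 and -0.08 in that order. B6 array 3 thus lay below the B6.MRLc1 arrays and the other two B6 arrays above them. With normexp background correction the B6 scores were 0.36, 0.15 and -0.21, and with quantile normalization 0.38, 0.19 and -0.26. Summed over the set, the linear signal ran from 165 to 251 times the array's 75th percentile in B6 and from 185 to 194 times in B6.MRLc1.

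**Figure D3:**
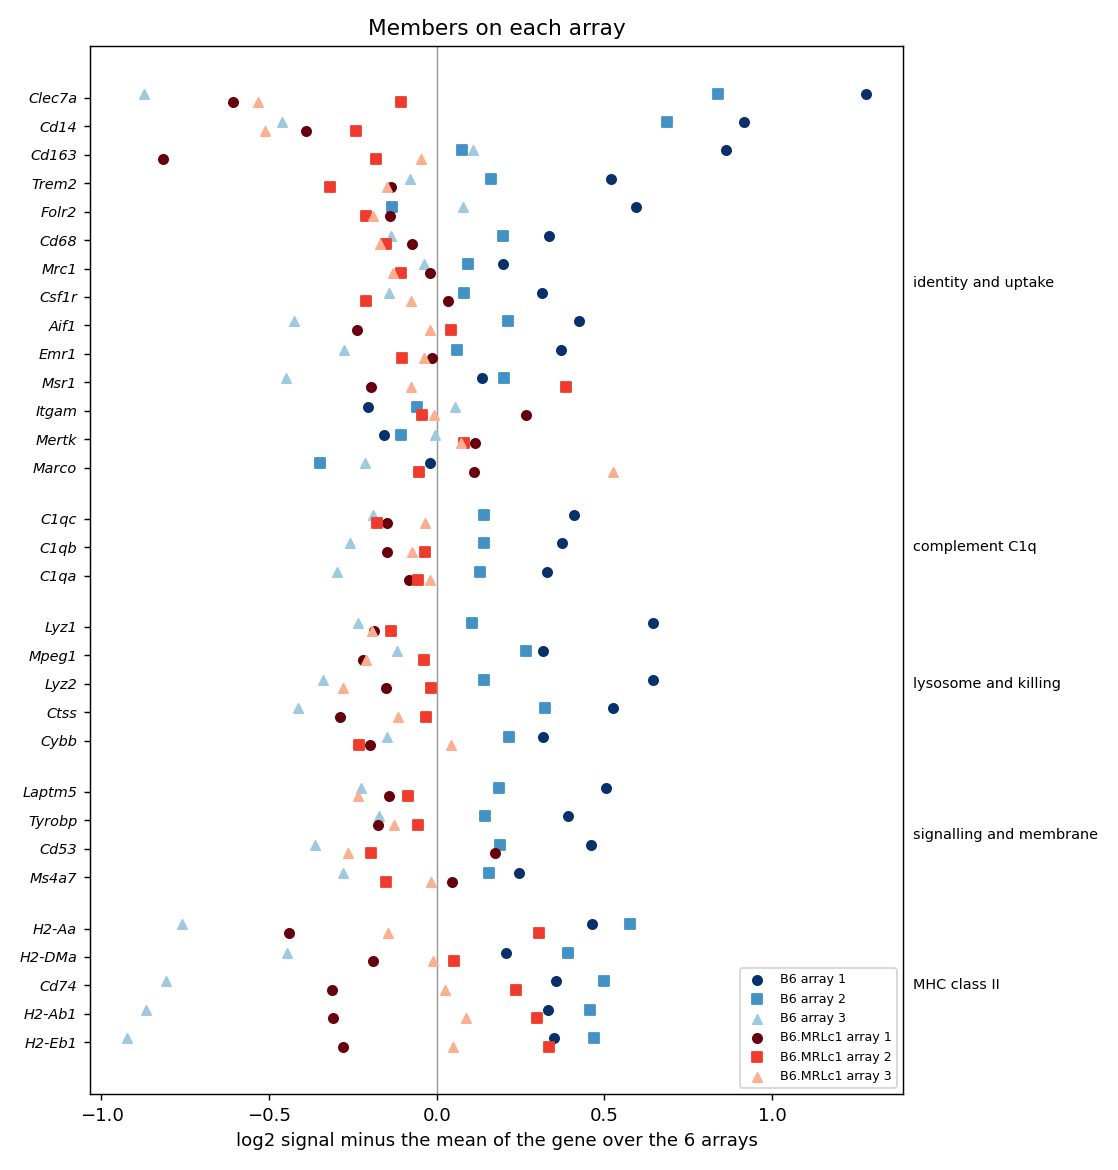
Each row is a gene and each point an array, given as log2 signal minus the gene's mean over the 6 arrays; blue symbols are B6 and red symbols B6.MRLc1 arrays. B6 arrays 1 and 2 lie to the right of all red symbols for 27 genes each, and B6 array 3 is the leftmost symbol for 17 genes.

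Among the 14 genes of identity and uptake, 10 had lower and 4 higher means in B6.MRLc1, with a median difference of -0.17. By the brightest probe, arrays of the 2 strains did not overlap for 4 of these genes, Mertk, Trem2, Cd163 and Folr2. By that probe they overlapped for all the other 27 genes of the set, although for a dimmer probe of Csf1r and of Mpeg1 they did not, as given below. Over all tested genes 28.6% did not overlap, 13.8% with B6.MRLc1 lower and 14.8% with B6.MRLc1 higher, so 4 of 31 genes is below that share.

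Mertk encodes a receptor kinase for the uptake of dying cells, which Sertoli cells also use. In the order of arrays 1, 2 and 3, used throughout, it read 1.40, 1.45 and 1.56 in B6 and 1.68, 1.64 and 1.63 in B6.MRLc1. The B6.MRLc1 arrays were all higher, and the 3 lay close together. The B6.MRLc1 mean was 1.13-fold the B6 mean (95% interval 1.02 to 1.26; limma adjusted p = 0.188), with SDs of 0.08 in B6 and 0.02 in B6.MRLc1 (n = 3 each). The probe lay on chromosome 2, 128627867 to 128627926 (mm9). Of 10 Sertoli cell markers 9 had higher means in B6.MRLc1, against 13642 of 25275 tested genes. All B6.MRLc1 arrays were above all B6 arrays for 5 of the 10, against 14.8% of all tested genes. Of the 10, 0 were called by limma (2 with an unadjusted p under 0.05). The scores of the list were -0.20, -0.02 and 0.02 in B6 and 0.07, 0.05 and 0.10 in B6.MRLc1, and the part of Sertoli cells in the Mertk value was not tested.

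Trem2 encodes a lipid receptor of macrophages that signals through Tyrobp. It read 3.16, 2.80 and 2.56 on the B6 arrays and 2.51, 2.32 and 2.49 on the B6.MRLc1 arrays. All B6.MRLc1 arrays were lower, although the gap between the groups was 0.06 log2 units. The difference was -0.40 (SE 0.16, n = 3 per strain; limma adjusted p = 0.240), or 0.757-fold with a 95% interval of 0.576 to 0.995. The Trem2 probe lay on chromosome 17, 48491537 to 48491596 (mm9).

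Cd163 encodes the scavenger receptor for haemoglobin bound to haptoglobin, a marker of resident macrophages. Its signals were dim, at -3.66, -4.45 and -4.42 on the B6 arrays and -5.34, -4.71 and -4.57 on the B6.MRLc1 arrays. The groups were separate, with a gap of 0.12 log2 units. The difference was -0.70 (SE 0.30, n = 3 per strain; limma adjusted p = 0.262). It was -0.17 with normexp background correction, which draws dim values together. Only 2 of 3 B6.MRLc1 arrays measured Cd163 above background.

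Folr2, the folate receptor of resident tissue macrophages, read 2.73, 2.01 and 2.22 on the B6 arrays and 2.00, 1.93 and 1.95 on the B6.MRLc1 arrays. The groups were separate with a gap of 0.00637 log2 units, and B6 array 1 stood above the rest. The difference was -0.36 (SE 0.19; limma adjusted p = 0.342), and without B6 array 1 it was -0.15.

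The 2 genes with the most negative differences also had wide B6 ranges. Clec7a, which encodes the fungal glucan receptor dectin-1, read -0.57, -1.01 and -2.73 on the B6 arrays and -2.46, -1.96 and -2.39 on the B6.MRLc1 arrays. B6 array 3 was the lowest of the 6 and B6 array 1 was 4.45-fold above it. The strain difference of -0.83 had a 95% interval of -2.22 to 0.56 (limma adjusted p = 0.454), and it was -0.64 with normexp.

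Cd14, the co-receptor for bacterial lipopolysaccharide, read 1.26, 1.03 and -0.12 on the B6 arrays and -0.05, 0.10 and -0.17 on the B6.MRLc1 arrays. B6 array 3 lay inside the B6.MRLc1 range and the other two B6 arrays lay above it. The difference was -0.76 (SE 0.36; limma adjusted p = 0.309). Without B6 array 3 it was -1.18, and Cd14 was then called (limma adjusted p = 0.0349; the range over all settings tried was 0.0349 to 0.567).

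Marco, which encodes a scavenger receptor for bacteria, had the highest difference of the set. It read -1.85, -2.18 and -2.04 on the B6 arrays and -1.72, -1.88 and -1.30 on the B6.MRLc1 arrays. B6.MRLc1 array 3 was the highest, and the groups overlapped between B6 array 1 and B6.MRLc1 array 2. The difference was 0.39 (SE 0.17; limma adjusted p = 0.276), and 0.22 without B6.MRLc1 array 3. Marco was the only gene of the set with a probe on chromosome 1, at 122371115 to 122371134 (mm9). The labels give the MRL segment in cM, and its ends were not placed in base pairs here.

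The remaining identity genes measured between -0.26 and 0.14. Mrc1, the mannose receptor, and Cd68, a lysosomal membrane marker, measured -0.17 (adjusted p = 0.295) and -0.26 (limma adjusted p = 0.317). Csf1r, the growth factor receptor that macrophages depend on, measured -0.17, with a 95% interval of -0.50 to 0.16. Emr1, the F4/80 antigen, and Aif1, a calcium-binding protein, measured -0.10 and -0.14. Itgam, the CD11b integrin chain, measured 0.14 and Msr1, a scavenger receptor, 0.08.

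Several genes had more than 1 probe, and some of these disagreed. For Csf1r the dimmer probes measured -0.12 and 0.19 beside the -0.17 of the brightest one, by which Csf1r is counted as lower above. The probe at 0.19 read 0.55, 0.51 and 0.53 in B6 and 0.74, 0.71 and 0.72 in B6.MRLc1. On that probe the B6.MRLc1 arrays were all higher, with an SD of 0.02 in each strain. For Itgam the dimmer probes measured 0.38 and -0.05, and the other Msr1 probe measured -0.14. No direction is therefore given for these 3 genes. The other Emr1 probe measured -0.00310, and the second probes of Cd68, Laptm5 and Mpeg1 measured -0.17, -0.25 and -0.37, on the same side as their brightest probes. The second Mpeg1 probe read -0.22, -0.38 and -0.41 in B6 and -0.82, -0.76 and -0.54 in B6.MRLc1, so on that probe the strains did not overlap.

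C1qa, C1qb and C1qc encode the chains of C1q, the recognition molecule that starts the classical complement pathway and that macrophages make in tissues. C1qc had the smallest p of the 3 and read 3.78, 3.51 and 3.18 on the B6 arrays and 3.22, 3.19 and 3.33 on the B6.MRLc1 arrays. The lowest value was that of B6 array 3, and B6 arrays 1 and 2 were above all others. The difference was -0.24 (SE 0.16, n = 3 per strain; limma adjusted p = 0.435). C1qb measured -0.17 and C1qa -0.11.

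The 3 C1q genes varied more between B6 arrays than between B6.MRLc1 arrays. Their SDs were 0.30 to 0.32 between B6 arrays and 0.03 to 0.08 between B6.MRLc1 arrays. All 3 had B6 array 1 as the highest and B6 array 3 as the lowest of the 6 arrays. Their probes lay beside each other on chromosome 4, from 136436578 to 136452468 (mm9). Without B6 array 1, C1qa measured 0.03, C1qb -0.03 and C1qc -0.10.

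All 5 genes of the lysosome and killing had lower means in B6.MRLc1, between -0.34 and -0.26. Mpeg1, which encodes the pore-forming protein perforin-2, had the smallest p of them. It read 4.06, 4.01 and 3.63 on the B6 arrays and 3.53, 3.71 and 3.54 on the B6.MRLc1 arrays, and B6 array 3 lay below B6.MRLc1 array 2. The difference was -0.31 (SE 0.13, n = 3 per strain; limma adjusted p = 0.266), or 0.806-fold with a 95% interval of 0.642 to 1.01. The probe lay on chromosome 19, 12539387 to 12539446 (mm9).

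Lyz1 and Lyz2 encode lysozymes, which cut bacterial cell walls, and are near-identical neighbours on chromosome 10, so a probe of one may also bind RNA of the other. Lyz1 read 4.26, 3.72 and 3.38 on the B6 arrays and 3.43, 3.48 and 3.42 on the B6.MRLc1 arrays. The 3 B6.MRLc1 arrays lay within a 1.04-fold range and the B6 arrays spanned 1.84-fold. Lyz1 measured -0.34 and Lyz2 -0.30 (limma adjusted p = 0.427 and 0.538). Ctss, the cathepsin that trims the class II invariant chain, measured -0.29 with a B6 range of 1.92-fold. Cybb, the catalytic chain of the phagocyte oxidase, was dim and measured -0.26, and -0.09 with normexp.

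The 4 signalling and membrane genes also had lower means in B6.MRLc1, from -0.31 to -0.08. Laptm5, a lysosomal protein of leukocytes, had the smallest p and read 0.89, 0.58 and 0.16 on the B6 arrays and 0.25, 0.30 and 0.15 on the B6.MRLc1 arrays. B6 array 3 lay among the B6.MRLc1 arrays. The difference was -0.31 (SE 0.19, n = 3 per strain; limma adjusted p = 0.401). Tyrobp, the adaptor that carries the signal of Trem2 and related receptors, measured -0.24 (adjusted p = 0.408), Cd53, a tetraspanin, -0.19, and Ms4a7, a membrane protein of macrophages, -0.08. Cd53 was dim and measured -0.04 with normexp.

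The class II genes differed from the rest of the set in the order of the arrays. H2-Aa and H2-Ab1 encode the chains of the I-A molecule, H2-Eb1 the beta chain of I-E, Cd74 the invariant chain that guards the binding groove, and H2-DMa a chain of the H2-DM molecule that helps load peptide. These genes are known to be switched on together through the CIITA coactivator, which acts on factors bound to the X and Y boxes of their promoters. After the order of their arrays had been seen, the promoters of RefSeq (GRCm38.p6, 250 bases before to 50 after the start) were searched on both strands. The search was for GCAAC, the letters of the X box searched here, followed after 25 to 35 bases by GATTGG, the letters of the Y box. The 2 motifs do not overlap. The stretches found in H2-Aa and H2-Eb1, and in H2-Oa, a chain of H2-O, the inhibitor of H2-DM, which is not in the set, are shown with both motifs in capitals.
H2-Aa, chr17:34287857-34287914, minus strand: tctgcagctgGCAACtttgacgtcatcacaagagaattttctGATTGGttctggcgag
H2-Eb1, chr17:34305766-34305822, plus strand: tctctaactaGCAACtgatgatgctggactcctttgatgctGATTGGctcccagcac
H2-Oa, chr17:34092293-34092350, plus strand: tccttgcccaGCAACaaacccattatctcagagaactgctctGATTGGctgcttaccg

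The spacer between the motifs was 27 bases in H2-Aa and H2-Oa and 26 in H2-Eb1. The pair was found in 73 of 32851 promoters, or 0.222%. Of the 23 genes of the set with a promoter in the table, 3 held it, H2-Aa, H2-Eb1 and Cd68. H2-DMa and its partner gene H2-DMb1, whose arrays stood in the order of the class II genes described next, did not hold it. The H2-DMa promoter held GCAAC and GATTGG, but not with the order and spacing searched. Cd68 held the pair, and its arrays stood in another order. Whether the motifs bear on the order of the arrays was not tested. Promoters of Emr1, Cd74, Cd14, Tyrobp, C1qa, H2-Ab1, Msr1 and Csf1r were not analysed here.

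On the arrays, H2-Aa read 0.84, 0.96 and -0.38 in B6 and -0.06, 0.68 and 0.24 in B6.MRLc1. H2-Ab1 read 4.16, 4.29 and 2.97 on the B6 arrays and 3.52, 4.13 and 3.92 on the B6.MRLc1 arrays. H2-Eb1 read 3.96, 4.09 and 2.69 on the B6 arrays and 3.34, 3.95 and 3.66 on the B6.MRLc1 arrays. In all 3 genes B6 array 2 was the highest and B6 array 3 the lowest of the 6, and B6.MRLc1 array 2 the highest and array 1 the lowest of that strain. Cd74 read 3.25, 3.39 and 2.08 on the B6 arrays and 2.58, 3.13 and 2.91 on the B6.MRLc1 arrays. H2-DMa read -0.19, -0.01 and -0.85 on the B6 arrays and -0.59, -0.35 and -0.41 on the B6.MRLc1 arrays. Both had that same order.

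Arrays ranked 2, 1, 3 in B6 and 2, 3, 1 in B6.MRLc1, with B6 array 3 below all others, in 5 of 5 class II genes, in Msr1 and in none of the other 25 genes of the set. Over all tested genes with values on every array, 307 of 25270 had that order, or 1.21%, and it was chosen after the values were seen. The order in Msr1 is that of its brighter probe. The other Msr1 probe read -3.35, -3.37 and -4.13 in B6 and -4.01, -3.66 and -3.59 in B6.MRLc1, which is another order. Arrays of 1 number in the 2 strains also shared a column of the slide. The B6 arrays spanned 1.79-fold for H2-DMa and 2.48-fold to 2.63-fold for the other 4 genes. The B6.MRLc1 arrays spanned 1.18-fold for H2-DMa and 1.46-fold to 1.67-fold for the others.

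The means of the strains lay close together for class II, and the intervals were wide. H2-Aa, with the smallest p, differed by -0.19 (SE 0.40, n = 3 per strain; limma adjusted p = 0.821). Its interval ran from 0.442-fold to 1.75-fold. H2-Ab1 measured 0.05, H2-Eb1 0.07, Cd74 -0.03 and H2-DMa -0.10 (limma adjusted p = 0.953, 0.938, 0.969 and 0.828). The intervals of H2-Aa, H2-Ab1, H2-Eb1 and Cd74 each ran from 0.537-fold or lower to 1.75-fold or higher, so the arrays do not show that class II levels were equal. Without B6 array 3 the class II differences ran from -0.61 to -0.35, and without B6 array 2 from 0.06 to 0.32, and in neither case was a class II gene called. The H2-Aa probe lay on chromosome 17, 34421285 to 34421344, and the H2-Eb1 probe at 34453075 to 34453134 (mm9).

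The 2 H2-Ab1 probes, at 34406296 to 34406355 and 34406305 to 34406363 on chromosome 17 (mm9), share 51 bases except for the substitution T51C, counted from the 5′ end of the brighter probe. The base that differs is in capitals in the stretch around it.
Brighter H2-Ab1 probe: caaataaacgagacTcagactctg
Other H2-Ab1 probe: caaataaacgagacCcagactctg
The brighter probe measured 0.05 and the other 0.07 between the strains, and both gave the same order of the arrays.

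Further genes of the same pathways were described from wider lists. Of 35 other genes of macrophage identity, 25 had lower means in B6.MRLc1, the median difference was -0.19, and 0 were called by limma (6 with an unadjusted p under 0.05). Itgax, the CD11c integrin chain, measured -0.83 (limma adjusted p = 0.0847), Il34, a second ligand of the Csf1r receptor, -0.36 (0.110), and Cd36, a fatty acid and scavenger receptor, 0.71 (0.125). B6 array 1 was the highest B6 array for 28 of these 35 genes and B6 array 3 the lowest for 29. That order of the B6 arrays was thus also found outside the 31 genes.

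Of 29 other genes of phagocytosis and the lysosome, 25 had lower means in B6.MRLc1, and 1, Syk, was called lower, where 2.21% of all tested genes were. Syk encodes the kinase that carries signals of Clec7a, Trem2 and Fc receptors. It read 1.69, 1.67 and 1.39 on the B6 arrays and 1.03, 0.94 and 0.92 on the B6.MRLc1 arrays. All B6.MRLc1 arrays were lower, and the gap between the groups was wider than the range of either. In log2 signal Syk fell by 0.62 with an SE of 0.10 (n = 3 per strain), at a limma adjusted p = 0.0429 that ranged from 0.0145 to 0.143 over the alternatives, and with normexp it measured -0.62. The call was lost in 5 of the 6 fits that left out 1 array, all but that without B6 array 3, while the difference stayed between -0.65 and -0.56 in those 5. Fcer1g, the Fc receptor gamma chain, measured 0.38 (limma adjusted p = 0.112) and Axl, a receptor kinase of the Mertk family, 0.26 (0.139). Which genes of the wider lists lie in the MRL segment of chromosome 1 was not determined here, Fcer1g included.

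Of 17 other genes of class II presentation, 14 were tested, 9 had lower means in B6.MRLc1 and 0 were called by limma (1 with an unadjusted p under 0.05). H2-DMb2 and H2-Ea-ps were not well above background on any array. Cd83, which helps to keep class II at the cell surface, measured -0.70 (limma adjusted p = 0.132). Cd40, a co-stimulatory receptor, measured -0.44 and -0.06 with normexp, and Ifi30, a lysosomal thiol reductase, -0.36. H2-DMb1, the partner chain of H2-DMa, and H2-Oa were chosen for naming after their values were seen. They showed the order of arrays of the class II genes, and the remaining 12 tested genes of this list did not. H2-DMb1 read 0.54, 0.78 and -0.62 on the B6 arrays and -0.17, 0.32 and -0.01 on the B6.MRLc1 arrays. H2-Oa was dim and well above background on 2 arrays of each strain.

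Of 16 genes of MHC class I presentation, which shows peptides to CD8 T cells, 15 had lower means in B6.MRLc1, with a median of -0.07, and 0 were called by limma (1 with an unadjusted p under 0.05). Tap1, the peptide transporter, measured -0.58 (limma adjusted p = 0.137), and -0.29 with normexp. Canx, a chaperone, measured 0.11 and Psmb10, a proteasome subunit, -0.12. Of 15 genes of macrophage activation, 9 were tested and 0 were called by limma (2 with an unadjusted p under 0.05). Cxcl9, a chemokine that interferon gamma induces, measured 0.56 (limma adjusted p = 0.0881), Socs3, an inhibitor of cytokine signalling, -1.36 (0.167), and Chil3, a chitinase-like protein, 0.53 (0.272). Il6, Il10, Il12b and Ccl22 were not well above background on any array.

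Markers of other cells moved over the arrays as well, and the part of these cells in the values above was not tested. The 11 tested T cell genes of 14 had scores of -0.02, 0.20 and -0.38 in B6 and 0.05, 0.30 and -0.02 in B6.MRLc1. Array 2 was the highest of each strain and B6 array 3 the lowest of the 6, as in class II. The B6.MRLc1 scores ranked 2, 1, 3, however, and not 2, 3, 1 as in class II. The full order of the class II genes was shown by 2 of the 11, against 1.21% of all tested genes. The summed signal of the T cell genes ran from 4.60 to 5.12 in B6 and from 4.85 to 5.30 in B6.MRLc1. The 5 tested B cell and plasma cell genes of 8 had scores between -0.23 and 0.06, and Ms4a1, Blk and Pax5 were not well above background on any array. The 7 tested dendritic cell genes of 10 had scores of -0.03, 0.23 and -0.07 in B6 and -0.10, 0.13 and -0.18 in B6.MRLc1, and Xcr1 and Itgae were not well above background on any array. Of these T, B and dendritic cell genes 0 were called by limma (0, 0 and 1 with an unadjusted p under 0.05).

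The 5 tested neutrophil genes of 12 had scores of 0.84, 0.52 and 0.11 in B6 and -0.05, -0.74 and -0.60 in B6.MRLc1. Ngp, Cxcr2, Retnlg and Mmp8 were not well above background on any array. Of the 5 genes 1, the granule peptide gene Camp, was called lower, where 2.21% of all tested genes were. It measured -1.10 (limma adjusted p = 0.0498, and 0.0205 to 0.160 over its alternatives), and -0.75 with normexp. Of the 6 fits that left out 1 array, 1 called Camp. The summed signal of the list ran from 114 to 144 in B6 and from 126 to 147 in B6.MRLc1. B6 array 1 had the lowest sum of the 6 arrays and the highest score. A sum of linear signals is weighted to the brightest probes, and the score, a median over genes, is not. Neutrophils share Itgam, Cybb and Tyrobp with macrophages.

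Spermatid genes had scores of 1.72, 0.78 and 0.47 in B6 and -1.23, -1.41 and -0.40 in B6.MRLc1, with summed signals of 14.2 to 42.6 and 2.94 to 6.64. The median difference of the 12 genes was -1.93, and -0.66 with normexp. Of the 12, 2 were called lower, where 2.21% of all tested genes were. They were the acrosin gene Acr at -0.90 (limma adjusted p = 0.0268, and 0.0141 to 0.101 over its alternatives) and the sperm calcium channel gene Catsper1. The Catsper1 signal did not clear background on the B6.MRLc1 arrays. It passed the filter through the B6 arrays alone, so its call is in part set by the filter. Its difference ran from -3.33 to -0.44 over its alternatives. Of the 6 fits that left out 1 array, 1 called Acr and 4 called Catsper1, whose limma adjusted p ranged from 0.00773 to 0.184 over its alternatives. In the scores, B6 array 1 was thus the highest and B6 array 3 the lowest B6 array for the spermatid list as for the set. By gene, the lowest B6 array was array 3 for 7 of the 12 spermatid genes, array 2 for 4 and array 1 for 1. B6 array 3 lay above all B6.MRLc1 arrays in the spermatid score, but below them in the score of the set.

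**Figure D4:**
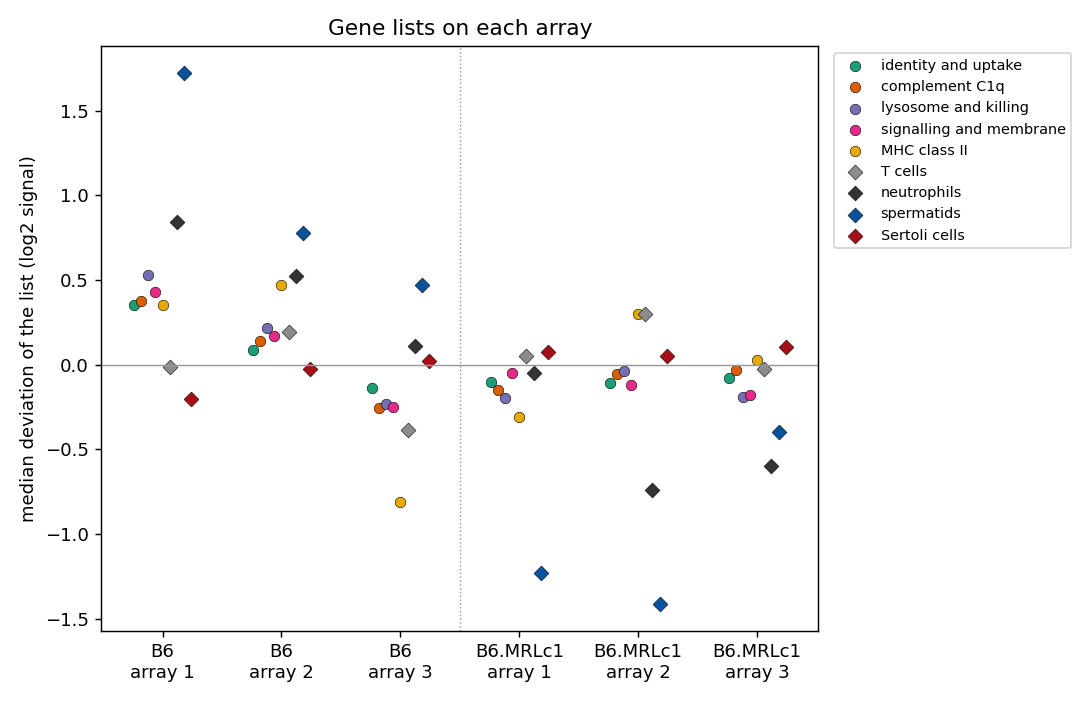
Scores of gene lists on each array, as the median over the tested genes of a list of the log2 signal minus the gene's mean over the 6 arrays; circles are the 5 roles of the set and diamonds the markers of other cells. The 5 circles are above 0 on B6 arrays 1 and 2 and below 0 on B6 array 3, and MHC class II reaches from -0.81 on B6 array 3 to 0.47 on B6 array 2.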

How the data were processed

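Per the labels' protocols, the authors labelled 0.1 ug of testis RNA per sample with Cy3 for 1-colour Agilent arrays. Each deposited scanner table gives spot intensity, corrected for background and detrended per the file headers, and 0 or 1 flags for spot quality. The version of Feature Extraction is 10.7.3.1 per the file headers and 9.5.3 per the submitters' processing notes, and the annotation is on mm9 per the file headers. The deposited series table holds log2 values of unstated making, 99.9% of which lay within 0.05 of the log2 signal scaled as below and centred on each probe's median.

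Control and outlier spots were removed, processed intensity was divided by the array's 75th percentile, and log2 values were averaged per probe. Probes were kept if they had values on 4 or more arrays and if over 0.5 of their spots were well above background on 3 or more, which left 36626 of 55681. The brightest kept probe per gene entered limma 3.58.1 (R 4.3.3; lmFit and eBayes, B6.MRLc1 against B6, Benjamini-Hochberg over 25275 genes). At an adjusted p under 0.05 it called 661 genes, 102 higher and 559 lower. The fit was tested on simulated data. Current symbols came from a RefSeq GRCm38.p6 table, positions from the array annotation, and exons were not looked up.

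The 31 members and all gene lists were chosen with earlier results of these data known. Values on every array are given for members whose strains do not overlap, for the member with the smallest p in each of the 5 roles, and for others chosen after their values were seen. Of other lists, called genes are named, and in pathway lists up to 3 genes with the smallest p. Alternatives were normexp background correction (offset 50), median scaling, quantile normalization, no filter, a filter on all 6 arrays, a floor for dim values, the median over probes, the deposited series values, a variance trend, array weights, the replicate number as a block and leaving out each array. P-values measure the spread between 3 arrays per strain, which the design text counts as 3 mice.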

Additional observations from a re-analysis of the deposited data

How the results depend on the processing

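Of 526 values of the 31 genes under 17 alternatives, 504 kept their sign and their side of the threshold, 21 turned sign and 1, Cd14 without B6 array 3, passed it. The number of called genes of the set was 0 in each alternative but leaving out arrays, where it ran from 0 to 1, and the median difference stayed below 0 in all of them. Over all genes, 661 calls became 50 if dim probes were not filtered, 440 from the deposited series values, 1202 under a variance trend and 1606 under array weights. Leaving out 1 array gave 50 (without B6 array 1) to 482 calls. With the replicate number as a block, limma called 0 genes (4865 with an unadjusted p under 0.05). Deviations of same-numbered arrays correlated at -0.04, 0.17 and 0.09, and those of other pairs between -0.16 and 0.07. These few values cannot settle whether the numbers pair the samples, and the labels state no pairing. The block changed no call in the set. The causes of these shifts were not tested.

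Sign changes were all in genes that were not called. With the median over probes Csf1r measured 0.0102, Itgam -0.0467 and Msr1 -0.0309. With array weights Msr1 measured -0.0558, H2-Ab1 -0.19 and H2-Eb1 -0.19. Leaving out 1 array moved Msr1 between -0.13 and 0.20, H2-Ab1 between -0.37 and 0.29, H2-Eb1 between -0.37 and 0.32, Cd74 between -0.45 and 0.21, H2-Aa between -0.61 and 0.0555, and H2-DMa between -0.35 and 0.0698. It moved Aif1 between -0.39 and 0.0358, C1qa between -0.28 and 0.0315, Emr1 between -0.27 and 0.0556 and Ms4a7 between -0.24 and 0.0220. Signal over background limits Cd163, Cd53, Cybb and Msr1, whose differences with normexp were -0.17, -0.04, -0.09 and 0.09.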

Other observations

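Further marker lists were measured beside the macrophage genes. The 7 tested fat cell genes of 8 had higher means in B6.MRLc1, with a median difference of 1.06 and 0 called by limma (6 with an unadjusted p under 0.05). All B6.MRLc1 arrays were above all B6 arrays for 5 of the 7, against 14.8% of all tested genes. Their scores were -1.10, -0.26 and -0.25 for B6 arrays 1, 2 and 3 and -0.000851, 1.06 and 0.47 for B6.MRLc1 arrays 1, 2 and 3. The B6.MRLc1 arrays ranked 2, 3, 1, as in class II, in 7 of 7 fat cell genes and 10 of 16 class I presentation genes. Over all tested genes 20.7% had that B6.MRLc1 order. The B6 order of class II, 2, 1, 3, was found in 0 of the 7 fat cell genes. The 6 tested Leydig cell genes of 7, markers of the neighbours of interstitial macrophages, had a median difference of 0.15 and 0 calls by limma (2 with an unadjusted p under 0.05). Their scores were 0.15, -0.21 and -0.14 in B6 and -0.00254, 0.14 and 0.07 in B6.MRLc1.

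Of 5 tested mast cell genes of 9, 1, the histidine decarboxylase gene Hdc, was called lower at -0.40 (limma adjusted p = 0.0451, and 0.0134 to 0.146 over its alternatives). Over all tested genes 2.21% were called lower. Of the 6 fits that left out 1 array, 0 called Hdc and 6 called Alas2, given next. Of 4 tested red cell genes of 6, 1, the haem synthesis gene Alas2, was called lower at -1.04 (limma adjusted p = 0.00872; range over its alternatives 0.00139 to 0.0799), and the list's scores ran from -1.05 to 1.00. The 5 tested NK cell genes of 7 had a median difference of -0.05, and 0 were called by limma (0 with an unadjusted p under 0.05). Their scores were 0.01, 0.62 and -0.32 in B6 and -0.27, 0.23 and -0.07 in B6.MRLc1, which is the order of the class II genes. Of the 5 genes 2 showed that order, against 1.21% of all tested genes, and the part of NK cells in the class II values was not tested.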
